A study of Homo sapiens with 9 samples.

Results

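In A549 cells with oligos against the transcription factor ELK1, 537 of 12616 genes tested differed from cells with a control oligo, and 387 of these rose. Whether these changes come from the loss of ELK1 or from other effects of the oligos was not tested. The comparison used the 3 arrays of cells with an RNA interference oligo against ELK1 (si-Elk1) and the 3 arrays of cells with the control oligo (si-Ctrl), which are 6 of the 9 arrays of the series. The samples were taken by their titles. The remaining 3 arrays carried oligos against MED23, a Mediator subunit (si-Med23), and enter only as a second knockdown. The series is about the requirement for MED23 in lung cancer cells with active Ras, and the si-Elk1 arrays ask which transcripts depend on ELK1.

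A549 is an established human lung adenocarcinoma cell line. All cells were grown in DMEM with fetal bovine serum and had no further treatment, so no group was starved or stimulated. The si-Ctrl arrays are numbered 1 to 3. The si-Elk1 arrays each carry a different oligo, called A, B and C, and the submitters describe them as different cell lines, so that the spread among them includes the difference between oligos and each oligo has 1 array. Whether the controls were grown as separate cultures is not stated, so the p-values below reflect the scatter of these samples alone, and that scatter may be technical. On the arrays all 10 markers of lung adenocarcinoma epithelium examined (among them KRT8, KRT18, AKR1B10 and NQO1) had signals above the level used here to leave out dim genes on all 6 arrays. Markers of other cell types were mixed. Of 5 blood markers CD3E was above that level on all 6 arrays, HBB on 5, CD3D on 3, TYROBP on 1 and PTPRC on none. Of 4 endothelial markers PECAM1 was above it on all 6 and CDH5, VWF and KDR on none. Of 4 fibroblast markers DCN was above it on 5, LUM on 2, PDGFRB on 1 and COL3A1 on none. In bulk RNA, fewer cells of a kind and less RNA per cell cannot be told apart.

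ELK1 is an ETS-domain transcription factor of the ternary complex factor group, together with ELK3 and ELK4. These proteins bind an ETS motif beside a CArG box occupied by a dimer of SRF, the serum response factor. ERK phosphorylates the ELK1 activation domain, and phosphorylated ELK1 contacts the MED23 subunit of Mediator and thereby RNA polymerase II. The classical targets are immediate-early genes such as EGR1 and FOS, which are switched on within minutes of growth factor addition, and ELK1 also binds many promoters without SRF.

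Motifs of these kinds are visible in the promoters of some of the genes measured here, and 7 stretches are shown so that a reader can see what an ELK1 or SRF motif looks like beside a gene that rose, fell or did not pass. The sequences are RefSeq promoter windows of assembly GRCh38.p14, read 5′ to 3′ on the strand of the gene. Capitals mark 1 match a stretch, which is a CArG box (CC, then 6 bases of A or T, then GG) in the first 4 and the ETS core CCGGAAG, or its reverse complement CTTCCGG, in the last 3. EGR1 and SRF are textbook SRF targets and did not pass the test, and each of their stretches holds a further CArG box, left in lower case near its 3′ end. CXCR4 fell and FILIP1 rose. EEA1 fell, CYP4F11 rose and ELK4 did not pass. CXCR4, FILIP1 and EEA1 passed narrowly and no longer did whichever of the 6 arrays was left out (limma adjusted p up to 0.138, 0.122 and 0.143).
EGR1, chr5:138465349-138465408, plus strand: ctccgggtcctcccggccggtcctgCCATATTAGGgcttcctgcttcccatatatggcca
SRF, chr6:43171214-43171268, plus strand: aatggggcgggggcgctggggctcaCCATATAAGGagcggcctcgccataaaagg
CXCR4, chr2:136117901-136117960, minus strand: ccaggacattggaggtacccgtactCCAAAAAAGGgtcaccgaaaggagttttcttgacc
FILIP1, chr6:75493942-75494001, minus strand: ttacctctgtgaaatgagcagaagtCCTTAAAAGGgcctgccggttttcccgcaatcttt
EEA1, chr12:92929483-92929539, minus strand: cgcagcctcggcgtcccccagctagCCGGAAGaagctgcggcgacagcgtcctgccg
CYP4F11, chr19:15934868-15934911, minus strand: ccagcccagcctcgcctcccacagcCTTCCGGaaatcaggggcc
ELK4, chr1:205632012-205632058, minus strand: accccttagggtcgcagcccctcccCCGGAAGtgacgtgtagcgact

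The values are probe set signals on a linear scale, in which each array had the same trimmed mean of 500. They are given here as log2(signal + 1) and called log2 signals, and a log2 fold change is the si-Elk1 mean minus the si-Ctrl mean of those values. Array medians ran from 76.9 to 79.9 in si-Ctrl and from 84.0 to 88.0 in si-Elk1. The poly-A spikes, bacterial RNAs spiked in ahead of labelling, had a mean log2 signal of 7.61 ± 0.20 (SD, n = 3) in si-Ctrl and 8.25 ± 0.29 in si-Elk1, a difference of 0.64 with no overlap between the groups (exact permutation p = 0.1, two-sided, the smallest that 3 arrays against 3 allow). Hybridization controls differed by 0.18 (exact permutation p = 0.1), while the ACTB 3′ to 5′ difference, a sign of RNA quality, was 0.72 ± 0.13 in si-Ctrl and 0.67 ± 0.07 in si-Elk1 (exact permutation p = 0.6). Their part in the results was not tested. All directions below are relative to the common trimmed mean, and the median log2 fold change of all genes tested was 0.05 as deposited, -0.08 after centring each array on its median, -0.13 with scaling on the hybridization controls and -0.59 with scaling on the poly-A spikes.

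The array of oligo C stood apart. Arrays were compared by the root mean square difference of their log2 signals over the 12616 genes. Control arrays differed from one another by 0.440 to 0.462, and oligos A and B from each other by 0.422. Against the control arrays, A and B differed by 0.537 to 0.585, whereas C differed by 0.725 to 0.801. C was 0.590 and 0.593 away from A and B. From the si-Med23 arrays, C was 0.636 to 0.663 away and A and B 0.730 to 0.802. Set against the mean of the 3 control arrays, oligo A had 492 genes at least 2-fold higher and 215 at least 2-fold lower, oligo B 440 and 214, and oligo C 768 and 1021. The same count for each control array against the other controls gave 168 to 185 higher and 174 to 229 lower. The excess of oligo C was thus mainly among lower genes. With 1 array per oligo these counts have no replicate check, and the cause of the distance was not tested.

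**Figure D1:**
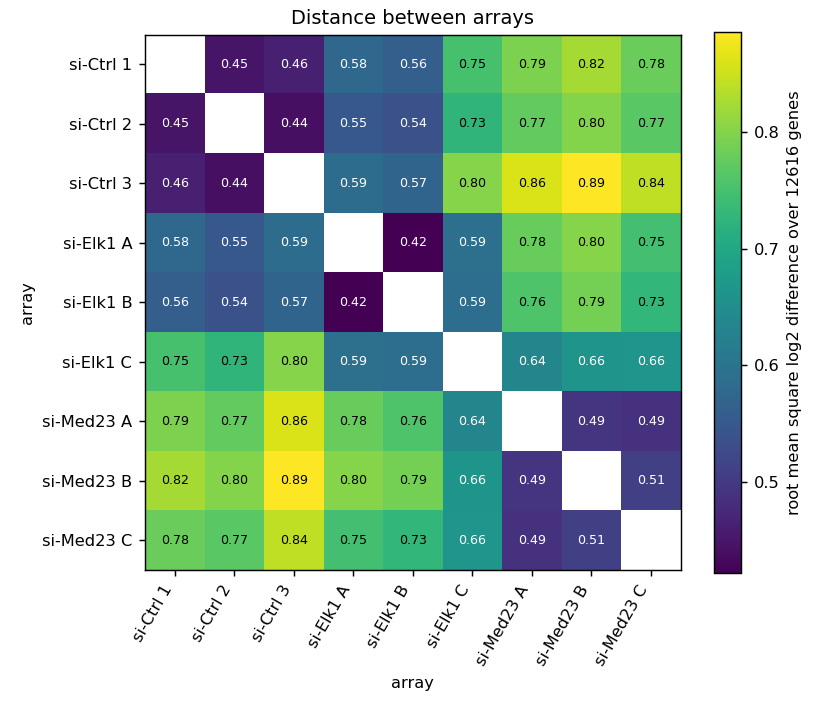
Root mean square log2 difference between each pair of the 9 arrays over 12616 genes, with arrays in the same order on both axes and darker cells for smaller differences. Oligos A and B lie 0.42 apart and 0.54 to 0.59 from the controls, and oligo C lies 0.73 to 0.80 from the controls.

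The ELK1 transcript itself was low with each oligo. On the brightest ELK1 probe set the control arrays had log2 signals of 9.36, 9.61 and 9.29, and the si-Elk1 arrays 7.07, 7.15 and 7.83 with oligos A, B and C. The groups did not overlap, and 19.6%, 20.7% and 33.1% of the mean control signal remained with A, B and C, so oligo C left the most. The log2 fold change was -2.07 ± 0.29 (SE, n = 3 arrays a group) with a limma adjusted p of 0.0728 over all 54613 probe sets, which did not pass the threshold of 0.05. Over the 12616 genes tested the same change had an SE of 0.26 and an adjusted p of 0.00684, which passed, and it passed there with any of the 6 arrays left out. A second ELK1 probe set read 8.41, 8.39 and 8.52 in si-Ctrl and 7.47, 7.17 and 7.44 in si-Elk1, again with no overlap (log2 fold change -1.08 ± 0.29, adjusted p = 0.259 over all probe sets). The last one was dim, with a change of -0.85. The names of all ELK1 probe sets end in _x_at or _s_at, a suffix for probes that may match several transcripts.

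Most other members of the ternary complex did not pass. Of the 7 genes in the list of ternary complex factors, SRF and SRF coactivators, ELK1 fell, MYOCD rose and 5 did not pass, beside 4.26% of all genes called. ELK3, a paralog of ELK1, read 11.98, 12.06 and 12.11 in si-Ctrl and 12.02, 12.07 and 11.13 with A, B and C, so that it stood at 98.2% and 101% of control with A and B and at 52.8% with C. ELK4, the other paralog, read 8.85, 9.16 and 9.08 in si-Ctrl and 9.06, 8.87 and 8.0 in si-Elk1. MRTFB, an actin-regulated SRF coactivator, read 10.49, 10.54 and 10.79 against 10.53, 10.46 and 9.75. On these brightest probe sets the oligo C array was the lowest of the 6 and A and B lay within or close to the controls. The order differed on other ELK4 probe sets, where A, B and C read 8.69, 7.02 and 7.28 on one and 7.05, 7.38 and 7.21 on another. On the brightest probe sets the si-Med23 arrays, from other oligos, were low as well, at 10.84, 10.82 and 11.43 for ELK3 and 9.44, 9.99 and 9.43 for MRTFB. On the other ELK3 probe set si-Med23 read 6.83, 7.51 and 7.36 against 7.25, 7.27 and 7.35 in si-Ctrl. There A, B and C read 7.65, 7.41 and 6.16. MED23 itself, the target of the other knockdown, had several probe sets, which differed. On the brightest it stood at 83.2% and 92.3% of control with A and B and at 51.8% with C (log2 fold change -0.44 ± 0.30, adjusted p = 0.600 over all probe sets). On the next in brightness A, B and C stood at 77.8%, 96.8% and 41.6%, and on the one after that at 129%, 158% and 108%. SRF read 7.71, 8.01 and 8.05 against 7.68, 8.24 and 8.33, and the change of MRTFA was 0.25 ± 0.15 on the log2 scale (adjusted p = 0.330). MYOCD, myocardin, a cardiac and smooth muscle SRF coactivator, rose from 7.02, 7.53 and 6.23 to 9.04, 8.93 and 8.41 (1.87 ± 0.32, adjusted p = 0.0207). That call was lost without si-Ctrl 1, oligo A or oligo B (adjusted p = 0.0596, 0.0646 and 0.0585) and was kept without oligo C.

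By limma with Benjamini-Hochberg adjustment over the genes tested, 387 genes rose and 150 fell at an adjusted p under 0.05, which is 4.26% of 12616 (3.07% higher, 1.19% lower). At an unadjusted p under 0.05 there were 3162 genes. In 4576 genes (36.3%) the si-Elk1 and si-Ctrl arrays did not overlap, 2668 of them higher in si-Elk1 (21.1%) and 1908 lower (15.1%). All 537 called genes were in this group and had the same sign with each oligo. At least a 2-fold change was fitted for 174 of the genes that rose and 57 of those that fell, and 132 and 25 were past 2-fold with every oligo. The balance of higher and lower calls depended on the scaling. It was 387 to 150 as deposited, 441 to 214 after quantile normalization, 239 to 328 after median centring, 166 to 258 with hybridization control scaling and 95 to 4898 with poly-A spike scaling.

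The number of calls was also lower with any single array left out. A fit with 1 array left out has less power, so a call lost in it does not by itself show that the change rested on that array. Without oligo C, 265 genes passed (2.10%), 182 higher (1.44%) and 83 lower (0.658%), and 225 of them were among the 537. Without oligo A or B there were 199 and 250 calls, and without si-Ctrl 1, 2 or 3 there were 148, 154 and 109. So 83 of the 537 genes, 71 higher and 12 lower, passed with any of the 6 arrays left out. Oligo C lay farthest from the control mean in 359 of the 537 and nearest in 91. For 14 called genes the group with the lower signals was wholly below the level used to leave out dim genes (log2 6.05, a signal of 65.4), so that the size of their change is uncertain.

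**Figure D2:**
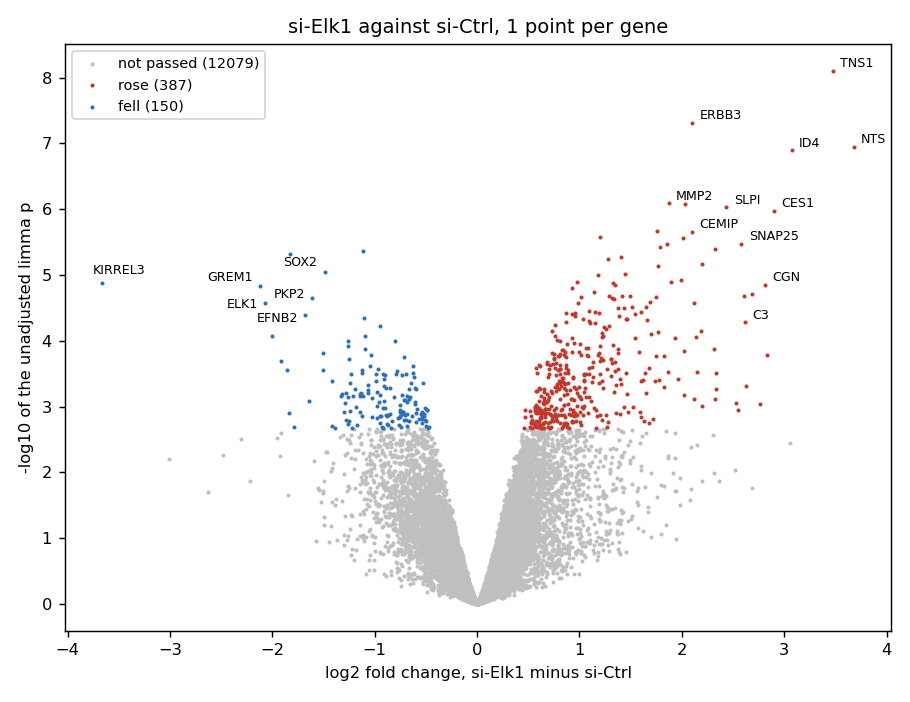
Fitted log2 fold change of each of 12616 genes (horizontal axis) against -log10 of its unadjusted limma p (vertical axis), with 387 genes that rose in red, 150 that fell in blue and the rest in grey. TNS1, ERBB3, NTS and ID4 have the smallest p-values among rises, and KIRREL3 has the largest fall.

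The largest rise was that of NTS, the precursor of the peptide neurotensin. It read 9.02, 8.52 and 8.89 in si-Ctrl and 12.44, 12.79 and 12.23 with oligos A, B and C, so each oligo was far above every control. The fitted change was 3.68 ± 0.23 (SE, n = 3 arrays a group; adjusted p = 0.000402). TNS1, tensin 1, which links integrins to actin, rose from 6.34, 6.55 and 6.14 to 9.84, 9.60 and 10.02 (3.48 ± 0.16, adjusted p = 9.89e-05). ID4, an inhibitor of basic helix-loop-helix factors, rose from 7.73, 8.27 and 7.78 to 11.0, 11.01 and 10.99 (3.07 ± 0.20, adjusted p = 0.000402). The oligos hardly differed from one another in ID4. CES1, a carboxylesterase, read 8.03, 8.47 and 8.12 against 11.03, 10.99 and 11.30 (2.90 ± 0.24, adjusted p = 0.00166). NTRK3, the receptor tyrosine kinase for neurotrophin-3, read 7.35, 7.72 and 7.64 against 10.13, 10.08 and 10.55 (2.69 ± 0.32, adjusted p = 0.00639). SNAP25, a membrane fusion protein of neurotransmitter release, read 8.88, 8.98 and 8.66 against 11.36, 11.54 and 11.38 (2.58 ± 0.25, adjusted p = 0.00306). C3, the central complement component, rose by 2.62 ± 0.36 and CYP4F11, a fatty acid hydroxylase, by 2.61 ± 0.31, again with every oligo above every control. These 8 genes passed with any of the 6 arrays left out. Without probe sets ending in _x_at or _s_at the SNAP25 change was 1.5 and did not pass (adjusted p = 0.0963).

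In the other 4 of the 12 largest rises at least 1 control array lay below the dim level. BMP4, a bone morphogenetic protein, had control signals of 6.10, 4.07 and 5.51 and si-Elk1 signals of 7.96, 8.0 and 8.24, and its fitted change of 2.84 ± 0.45 (adjusted p = 0.0164) came to 2.00 when signals under the dim level were raised to it. CGN, cingulin of tight junctions, had control signals of 3.99, 4.80 and 3.96, all below that level, and a change of 2.82 ± 0.32 (adjusted p = 0.00554) that came to 1.01. SMOC1, a matrix protein that modulates BMP signalling, had a change of 2.76 ± 0.56 (adjusted p = 0.0348) with control signals from 5.61 to 7.87. ADGRV1, an adhesion G protein-coupled receptor, had one of 2.63 ± 0.48 (adjusted p = 0.0254), or 1.34 with dim signals raised. Of these 4 CGN passed with any array left out. BMP4 lost its call without si-Ctrl 3 or oligo C (adjusted p = 0.0511 and 0.0532), SMOC1 without any array except si-Ctrl 2 (0.0720 to 0.107), and ADGRV1 without si-Ctrl 2, si-Ctrl 3, oligo A or oligo C (0.0811, 0.0924, 0.0627 and 0.0738).

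Among the falls, KIRREL3, a cell adhesion molecule of the immunoglobulin family, was the largest. It read 8.52, 8.67 and 8.23 in si-Ctrl and 4.27, 4.45 and 5.71 with A, B and C, with oligo C the least reduced. Since all si-Elk1 signals were dim, its fitted change of -3.66 ± 0.42 (adjusted p = 0.00554) is uncertain in size and came to -2.42 with dim signals raised. GREM1, gremlin, a secreted BMP antagonist, fell from 8.45, 8.47 and 8.60 to 5.99, 6.52 and 6.66 (-2.12 ± 0.24, adjusted p = 0.00570). LHFPL6, a tetraspan membrane protein, fell from 8.78, 8.96 and 8.58 to 6.63, 6.90 and 6.78 (-2.01 ± 0.29, adjusted p = 0.0121). CLTRN, collectrin, an amino acid transporter partner, fell by 1.82 ± 0.18 (adjusted p = 0.00340). EFNB2, ephrin-B2, fell from 7.87, 8.22 and 8.13 to 6.38, 6.12 and 6.68 (-1.68 ± 0.22, adjusted p = 0.00817). PKP2, the desmosomal protein plakophilin 2, fell from 8.77, 8.68 and 8.68 to 7.49, 7.03 and 6.78 (-1.61 ± 0.20, adjusted p = 0.00639). These 6 and ELK1 passed with any array left out. The LHFPL6 probe set ends in _s_at, and without probe sets ending in _x_at or _s_at its change was -0.54 and did not pass (adjusted p = 0.170).

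Each of the remaining 5 of the 12 largest falls lost its call in fits with 1 array left out. BCAT1, the cytosolic branched-chain amino acid transaminase, read 10.06, 10.05 and 10.46 against 8.73, 8.71 and 7.56 (-1.85 ± 0.32, adjusted p = 0.0204). MYBL1, a MYB family transcription factor, read 9.07, 9.02 and 9.25 against 7.58, 7.39 and 6.63 (-1.91 ± 0.31, adjusted p = 0.0178). ZNF462, a zinc finger protein, read 8.62, 8.77 and 8.66 against 7.55, 7.43 and 6.14 (-1.64 ± 0.33, adjusted p = 0.0327). In these 3 genes oligo C was the lowest array, and the call was kept without it but lost whichever control array was left out (adjusted p up to 0.0803, 0.0711 and 0.10). The changes themselves moved little. Without si-Ctrl 1, 2 or 3 they were -1.92, -1.92 and -1.72 for BCAT1 and -1.93, -1.96 and -1.84 for MYBL1. For ZNF462 they were -1.67, -1.60 and -1.65. With the mean of their probe sets MYBL1 had a change of -0.59 (0.185) and ZNF462 of -0.69 (0.127), and neither passed. EEA1, an early endosome tether, had a change of -1.79 ± 0.41 (adjusted p = 0.0494) and lost its call whichever of the 6 arrays was left out (0.0609 to 0.143). RRAD, a Ras-related GTPase, had one of -1.84 ± 0.39 (adjusted p = 0.0399), with all si-Elk1 signals dim, and lost its call without any control array or oligo B (adjusted p up to 0.127).

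**Figure D3:**
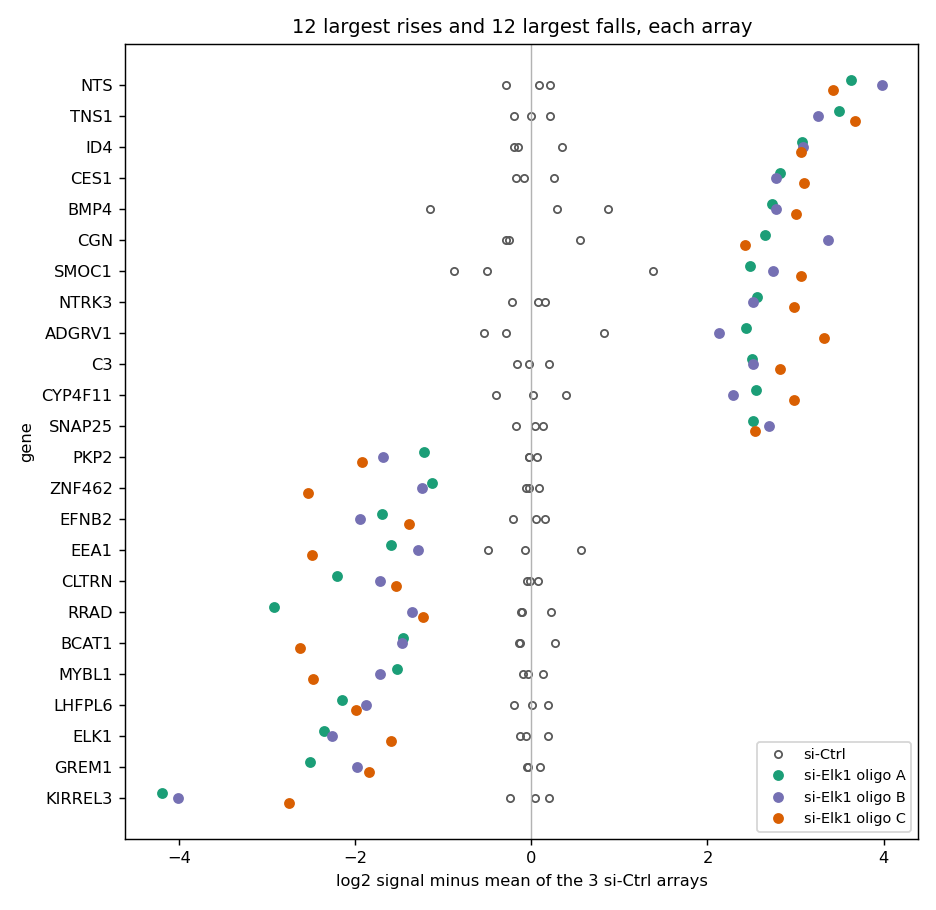
Log2 signal minus the mean of the 3 si-Ctrl arrays (horizontal axis) for the 12 genes with the largest rises and the 12 with the largest falls, with open circles for the control arrays and filled circles for oligos A (green), B (violet) and C (orange). The genes were chosen among called genes without overlap, so its absence here is not a result. In several falls, among them BCAT1, MYBL1, ZNF462, EEA1 and PKP2, oligo C is the lowest point.

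Below these in size, several secreted and membrane proteins rose by similar amounts with each oligo. They are named here after their values were seen. SLPI, a secreted inhibitor of leukocyte proteases, read 9.00, 8.88 and 8.82 in si-Ctrl and 11.20, 11.18 and 11.62 in si-Elk1 (2.44 ± 0.20, adjusted p = 0.00166). SLC51B, a bile acid transporter subunit, rose by 2.32 ± 0.23, CEMIP, which acts in hyaluronan breakdown, by 2.10 ± 0.19, and TM4SF20, a tetraspan membrane protein, by 2.03 ± 0.16. GRHL3, a grainyhead factor of epithelial differentiation, read 7.34, 7.79 and 7.56 against 9.35, 9.61 and 9.43 (1.90 ± 0.21, adjusted p = 0.00554). CHGB, chromogranin B of secretory granules, read 7.6, 8.26 and 7.74 against 9.54, 9.43 and 9.26 (1.54 ± 0.20, adjusted p = 0.00817). Among falls outside the 12 largest, SOX2, a stem cell transcription factor, read 9.89, 9.91 and 9.73 against 8.11, 8.33 and 8.62 (-1.49 ± 0.16, adjusted p = 0.00489) on its brightest probe set, while its 2 other probe sets above the dim level had changes of -0.09 and 0.47, neither with an unadjusted p under 0.05. CDK6, a G1 kinase, had a change of -1.29 ± 0.26 (adjusted p = 0.0345), FGF2, a fibroblast growth factor, one of -1.24 ± 0.23 (adjusted p = 0.0241), and CD274, the PD-L1 ligand, one of -1.28 ± 0.28 (adjusted p = 0.0440). SLPI, SLC51B, CEMIP, TM4SF20, GRHL3, CHGB and SOX2 passed with any array left out. CDK6 passed only without oligo A or oligo C among the 6 (adjusted p up to 0.114 otherwise), FGF2 only without oligo B (up to 0.0924), and CD274 in none of the 6 cases (0.0860 to 0.118).

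The immediate-early genes, the classical targets of ELK1 and SRF, moved both ways. The list had 24 members tested, of which 2 rose and 3 fell (3.07% and 1.19% of all genes did), and a median log2 fold change of 0.25 that was negative under poly-A spike scaling. SGK1, a serum-induced kinase, rose from 10.97, 10.92 and 10.89 to 11.95, 12.03 and 11.76 (0.98 ± 0.12, adjusted p = 0.00684) and passed with any array left out, but under poly-A spike scaling its change was 0.34 and did not pass (adjusted p = 0.242). ZFP36, an RNA-decay factor, had a change of 1.00 ± 0.19 (adjusted p = 0.0262). CCN2, a matricellular growth factor (-0.67 ± 0.13, adjusted p = 0.0316), and the Krüppel-like factors KLF6 (-0.68 ± 0.16, 0.0493) and KLF4 (-0.74 ± 0.17, 0.0497) fell. The KLF6 value is that of its brightest probe set. Its 4 other probe sets above the dim level had changes from -0.67 to 0.73, with 1 of opposite sign. CCN2, KLF6 and KLF4 lost their calls whichever of the 6 arrays was left out (up to 0.106, 0.138 and 0.138), and ZFP36 without any except oligo B (up to 0.0866). The best-known ELK1 targets did not pass. EGR1 read 7.41, 6.31 and 6.59 in si-Ctrl and 7.68, 7.03 and 7.10 in si-Elk1 (0.50 ± 0.28, adjusted p = 0.295), and FOS read 6.84, 7.19 and 7.06 against 7.25, 7.59 and 7.04 (0.26 ± 0.35, adjusted p = 0.660). MCL1, the survival factor of the BCL2 family, read 12.01, 12.09 and 12.16 against 11.68, 11.82 and 11.79 (-0.32 ± 0.12, adjusted p = 0.136). EGR1 and FOS overlapped between the groups and MCL1 did not. In si-Ctrl the EGR1 and FOS signals were not far above the dim level (log2 6.05), so a fall had limited room to show.

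In the wider ERK pathway each list held 0 or 1 call, beside 4.26% of all genes called. None of the 24 genes of ERK output (feedback phosphatases, Sprouty proteins, EGF receptor ligands) was called. On the si-Elk1 arrays 5 of them lay above and 6 below all control arrays, which over all genes is 21.1% and 15.1%. Nearest to the threshold were HMGA2, a chromatin protein (-0.81 ± 0.19, adjusted p = 0.0504), PLAU, urokinase (-0.59 ± 0.14, 0.0541), DUSP6, an ERK phosphatase (0.49 ± 0.12, 0.0562), and PLAUR, the urokinase receptor (0.66 ± 0.16, 0.0595). Of 17 components of the RAS-RAF-MEK-ERK chain 1 rose, the receptor ERBB3. It read 7.01, 7.14 and 7.27 in si-Ctrl and 9.36, 9.15 and 9.21 in si-Elk1 (2.10 ± 0.12, adjusted p = 0.000303), and it passed with any array left out. Its relatives EGFR (-0.27 ± 0.19, adjusted p = 0.401) and ERBB2 (0.36 ± 0.19, 0.267) did not pass. Among 17 other ETS factors none was called. ETV4 (0.62 ± 0.15, adjusted p = 0.0556) and ETV1 (-1.09 ± 0.33, 0.0918) came closest. Of 17 cytoskeletal targets of SRF and MRTF, ITGA5, the fibronectin receptor subunit, rose (0.65 ± 0.12, adjusted p = 0.0277), a call lost whichever array was left out (up to 0.103). TAGLN (1.13 ± 0.32, 0.0801) and ACTA2 (0.65 ± 0.18, 0.0789), both smooth muscle markers, were higher on all 3 si-Elk1 arrays and did not pass. Of 28 Mediator subunit genes 1 was called, or 3.57% beside 4.26% of all genes. It was MED21 of the middle module (-0.54 ± 0.11, adjusted p = 0.0395), which also lost its call whichever array was left out (up to 0.135). The medians were -0.10 for ERK output, 0.09 for the chain, -0.09 for ETS factors, 0.19 for SRF-MRTF genes and -0.03 for Mediator, against 0.05 for all genes. Those of the chain and of SRF-MRTF genes were negative under poly-A spike scaling, and that of the chain also under median centring and hybridization control scaling.

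Among inflammatory genes, complement and chemokine members changed most. Of the 24 genes of the NF-kB and inflammatory list 4 rose, 1 fell and 19 did not pass, beside 4.26% of all genes called, with a median of 0.44 (-0.19 under poly-A spike scaling). C3 read 8.22, 7.99 and 7.86 in si-Ctrl and 10.53, 10.54 and 10.85 in si-Elk1. CFB, complement factor B, read 5.69, 6.56 and 5.15 against 8.37, 7.72 and 8.32 (2.34 ± 0.44, adjusted p = 0.0263), and CCL20, a chemokine for CCR6-bearing cells, 7.25, 6.02 and 7.37 against 9.08, 9.70 and 9.50 (2.55 ± 0.53, adjusted p = 0.0384). LCN2, a siderophore-binding protein, rose by 1.73 ± 0.31 (adjusted p = 0.0232). CCL2, the monocyte chemokine, went the other way, from 11.40, 11.21 and 11.16 to 10.39, 10.66 and 10.08 (-0.88 ± 0.19, adjusted p = 0.0403). The neutrophil chemokine CXCL8 had a change of 0.90 ± 0.22 that did not pass (adjusted p = 0.0587). Of the 5 calls C3 was kept with any array left out. CFB was lost without si-Ctrl 1, si-Ctrl 3, oligo A or oligo C (up to 0.0908), LCN2 without any except oligo B (up to 0.0798), CCL2 without any except oligo B (up to 0.126), and CCL20 whichever array was left out (up to 0.0984). Among 20 interferon response genes IFITM2 (0.81 ± 0.14, adjusted p = 0.0203) and IFITM3 (0.86 ± 0.14, 0.0192), antiviral membrane proteins, rose and none fell, beside 3.07% of all genes that rose. IFITM2 was lost without si-Ctrl 1 or 3 (0.0702 and 0.0830) and IFITM3 without si-Ctrl 2 or 3 (0.0696 and 0.0798). That list had a median of 0.33, which was negative under poly-A spike scaling. CD14, the lipopolysaccharide co-receptor and 1 of 5 blood markers tested, rose from 7.48, 8.06 and 7.50 to 9.30, 9.38 and 9.67 (1.77 ± 0.25, adjusted p = 0.0113), a call lost without si-Ctrl 3 (0.0511). The blood list had a median of 0.60 (-0.04 under poly-A spike scaling). The summed signal of 5 defining blood markers, CD14 not among them, was 240.2 to 447.6 in si-Ctrl and 438.4 to 582.9 in si-Elk1, with mean log2 signals of 3.09 and 5.89 for TYROBP, 6.99 and 7.59 for HBB, and 3.78 and 3.89 for PTPRC. Their part in the CD14 result was not tested.

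Genes of epithelial junctions changed in both directions. Of 19 epithelial genes 4 rose and 2 fell, beside 4.26% of all genes called, and the median was 0.14, which was 0.00 after median centring and negative under hybridization control and poly-A spike scaling. CDH1, the adherens junction protein E-cadherin, read 10.78, 10.66 and 10.70 in si-Ctrl and 11.75, 11.80 and 11.72 in si-Elk1 (1.04 ± 0.21, adjusted p = 0.0368). CGN, TJP3, a tight junction scaffold (1.20 ± 0.21, 0.0207), and JUP, plakoglobin (0.57 ± 0.12, 0.0395), rose with it. OCLN, the tight junction membrane protein occludin, fell from 10.61, 10.35 and 10.49 to 9.29, 9.09 and 8.57 (-1.50 ± 0.24, adjusted p = 0.0163), as did PKP2. Of the epithelial calls CGN and PKP2 were kept with any array left out. OCLN was lost without si-Ctrl 1 or 3 (0.0559 and 0.0640), TJP3 without any except oligo A (up to 0.0798), and CDH1 and JUP whichever array was left out (up to 0.110 and 0.127). The keratin genes KRT8 (0.10 ± 0.19, adjusted p = 0.778), KRT18 (0.18 ± 0.14, 0.441) and KRT19 (-0.74 ± 0.37, 0.244) did not pass.

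Mesenchymal and matrix genes included 5 rises and no fall among 15 tested, beside 3.07% and 1.19% of all genes, with a median of 0.31 that was negative under poly-A spike scaling. MMP2, a gelatinase, rose from 7.10, 7.46 and 7.44 to 8.97, 9.27 and 9.38 (1.87 ± 0.15, adjusted p = 0.00166). FN1, fibronectin, rose from 12.56, 12.70 and 12.39 to 13.81, 13.82 and 13.85 (1.28 ± 0.13, adjusted p = 0.00355), and SPARC, a collagen-binding protein, by 1.79 ± 0.17 (adjusted p = 0.00318). These 3 passed with any array left out. COL1A1, a chain of collagen I (0.95 ± 0.19, 0.0318), and THY1, a surface glycoprotein (0.65 ± 0.15, 0.0464), rose too and lost their calls whichever array was left out (up to 0.0951 and 0.147). With the mean of its probe sets COL1A1 had a change of 0.13 (adjusted p = 0.898), and under poly-A spike scaling THY1 had one of 0.01 (0.971). COL1A1 and THY1 are also the only members of the fibroblast marker list bright enough to be tested (median 0.80). The summed signal of 4 other fibroblast markers was 158.3 to 234.8 in si-Ctrl and 188.9 to 378.9 in si-Elk1, with mean log2 signals of 5.99 and 7.37 for DCN, 5.05 and 5.62 for LUM, 4.97 and 3.66 for PDGFRB, and 4.05 and 4.84 for COL3A1. Their part in these results was not tested. VIM, vimentin (-0.13 ± 0.13, adjusted p = 0.555), CDH2, N-cadherin (-0.12 ± 0.20, 0.731), and ZEB1, a repressor of epithelial genes (-0.33 ± 0.43, 0.649), did not pass.

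Genes of BMP and TGF-beta signalling were among the largest changes in both directions. Of 20 genes in the TGF-beta list 4 rose and 1 fell, beside 4.26% of all genes called, with a median of 0.09 that was negative under median centring, hybridization control and poly-A spike scaling. Besides BMP4, the BMP-induced inhibitors ID1 and ID3 rose. ID1 read 13.28, 13.28 and 13.15 in si-Ctrl and 14.10, 14.07 and 14.34 in si-Elk1 (0.93 ± 0.12, adjusted p = 0.00817), and ID3 read 13.07, 13.13 and 12.92 against 13.69, 13.74 and 13.96 (0.76 ± 0.13, adjusted p = 0.0201). ID2 read 12.59, 12.91 and 12.89 against 12.72, 12.80 and 12.70 (-0.06 ± 0.23, adjusted p = 0.897), so the groups overlapped in ID2 alone of the 4 ID genes. TSC22D1, a TGF-beta-induced leucine zipper protein, rose by 0.93 ± 0.11 (adjusted p = 0.00592) on its brightest probe set, while with probe sets ending in _x_at or _s_at left out its change was -0.33 and did not pass. CCN2 was the member that fell. Under poly-A spike scaling ID1 (0.29, adjusted p = 0.238), ID3 (0.12, 0.649) and TSC22D1 (0.29, 0.259) did not pass. As deposited, ID1 and TSC22D1 passed with any array left out, and ID3 lost its call whichever control array was left out (0.0560 to 0.0830). Outside the list, and named after its value was seen, BMP2 had a change of 1.04 ± 0.18 (adjusted p = 0.0207), lost with any array left out except si-Ctrl 2 (up to 0.0806).

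Cell cycle genes were lower on most arrays without many single calls. Of 39 genes of G1/S and DNA replication 37 had a negative log2 fold change and 18 lay below all controls, but none passed, and the median was -0.23. Of 38 G2/M and mitotic genes 36 were negative, 21 lay below all controls and 2 fell, with a median of -0.37. Over all genes 15.1% lay below all controls, 4.26% were called (3.07% rose and 1.19% fell) and the median was 0.05. Both list medians were negative under each scaling tried and with each oligo: -0.33, -0.32 and -0.30 for G2/M with A, B and C, and -0.30, -0.27 and -0.15 for G1/S. CDK1, the kinase of mitotic entry, read 12.67, 12.64 and 13.10 in si-Ctrl and 12.20, 12.07 and 11.89 in si-Elk1 (-0.75 ± 0.16, adjusted p = 0.0411). NUF2, a kinetochore protein, read 10.47, 10.35 and 10.67 against 9.80, 9.76 and 9.09 (-0.95 ± 0.20, adjusted p = 0.0403). CDK1 and NUF2 lost their calls whichever array was left out (up to 0.124 and 0.133). CCNA2, cyclin A (-0.71 ± 0.17, 0.0525), FOXM1, a mitotic transcription factor (-0.59 ± 0.14, 0.0575), and CDC6, a replication licensing factor (-0.47 ± 0.11, 0.0545), lay below every control array and did not pass, and MKI67, the proliferation marker, overlapped (-0.37 ± 0.28, 0.417). Of 21 p53 targets MDM2, the p53 ubiquitin ligase, fell on its brightest probe set (-0.68 ± 0.13, adjusted p = 0.0301), which ends in _s_at, whereas without such probe sets its change was 0.11 and did not pass. CDKN1A, the p21 inhibitor, read 11.15, 11.21 and 11.21 against 11.80, 11.56 and 12.07 (0.62 ± 0.16, 0.0644). Of 19 apoptosis regulators BCL2L1, an inhibitor of cell death, had a call (0.60 ± 0.14, adjusted p = 0.0497) that turned to -0.039 under poly-A spike scaling. MDM2 and BCL2L1 lost their calls whichever array was left out (up to 0.108 and 0.146). The medians of the p53 and apoptosis lists were -0.01 and 0.07, and the latter was negative under median centring, hybridization control and poly-A spike scaling.

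Among 32 genes of hypoxia and glycolysis 5 rose and none fell, beside 3.07% of all genes that rose. In that list 29 had a positive log2 fold change and 19 lay above all controls (21.1% of all genes did). The median of 0.24 was negative under poly-A spike scaling. EGLN3, an oxygen-sensing prolyl hydroxylase, rose from 7.36, 7.73 and 7.05 to 8.72, 9.28 and 9.12 (1.66 ± 0.22, adjusted p = 0.00868) and passed with any array left out. SLC2A3, a glucose transporter, rose from 9.21, 9.22 and 9.29 to 10.11, 10.33 and 10.26 (0.99 ± 0.15, adjusted p = 0.0163), a call lost whichever control array was left out (0.0560 to 0.0609). P4HA2, a collagen prolyl hydroxylase (0.67 ± 0.13, 0.0335), MXI1, a MYC antagonist (0.82 ± 0.17, 0.0384), and HK1, a hexokinase (0.78 ± 0.17, 0.0448), rose and lost their calls whichever array was left out (up to 0.120, 0.126 and 0.132). In sterol and fatty acid synthesis INSIG1, which retains the sterol sensor in the endoplasmic reticulum, fell from 10.95, 10.80 and 10.51 to 9.76, 9.80 and 9.58 (-1.04 ± 0.17, adjusted p = 0.0194). That call was lost without si-Ctrl 1, si-Ctrl 2, oligo A or oligo C (up to 0.0702). The 23 genes of that list had a median of -0.36, negative under each scaling, and 12 lay below all controls. Over all genes 15.1% lay below all controls and 1.19% fell. DDIT4, an mTORC1 inhibitor (1.01 ± 0.20, 0.0312), and XBP1, a transcription factor of the unfolded protein response (0.72 ± 0.15, 0.0360), rose among 29 genes of the ATF4 and unfolded protein response (median -0.11) and lost their calls whichever array was left out (up to 0.0951 and 0.123).

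No gene was called in the lists of oxidative phosphorylation (57 tested), cytosolic ribosomal proteins (39), mitochondrial ribosomal proteins (62), proteasome subunits (27), splicing factors (45), NRF2 targets (24), alveolar type II genes (9) and endothelial markers (2). Over all genes tested 4.26% were called. The medians of these lists ran from -0.03 for splicing factors to 0.23 for oxidative phosphorylation, and all were negative under poly-A spike scaling. For oxidative phosphorylation the changes were small and mostly of 1 sign. Of the 57 genes 54 were positive and 35 lay above all controls, where 21.1% of all genes did. The median of 0.23 was 0.14, 0.13 and 0.44 with oligos A, B and C and -0.41 under poly-A spike scaling. Cytosolic ribosomal proteins had 38 of 39 positive, with a median of 0.19 (0.16, 0.07 and 0.36 with A, B and C), which was 0.03 after quantile normalization and -0.44 under poly-A spike scaling. In both lists oligo C was highest, as it was in the median of all genes (0.04, 0.02 and 0.15 with A, B and C). The proteins that carry out RNA interference itself also held no call among 13 tested (median -0.10). DICER1, which cuts double-stranded RNA, read 10.60, 10.70 and 10.67 in si-Ctrl and 9.97, 9.84 and 8.56 with A, B and C (-1.20 ± 0.36, adjusted p = 0.0880). AGO2, the slicing argonaute, had a change of -0.39 ± 0.13 (adjusted p = 0.108), and neither passed.

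**Figure D4:**
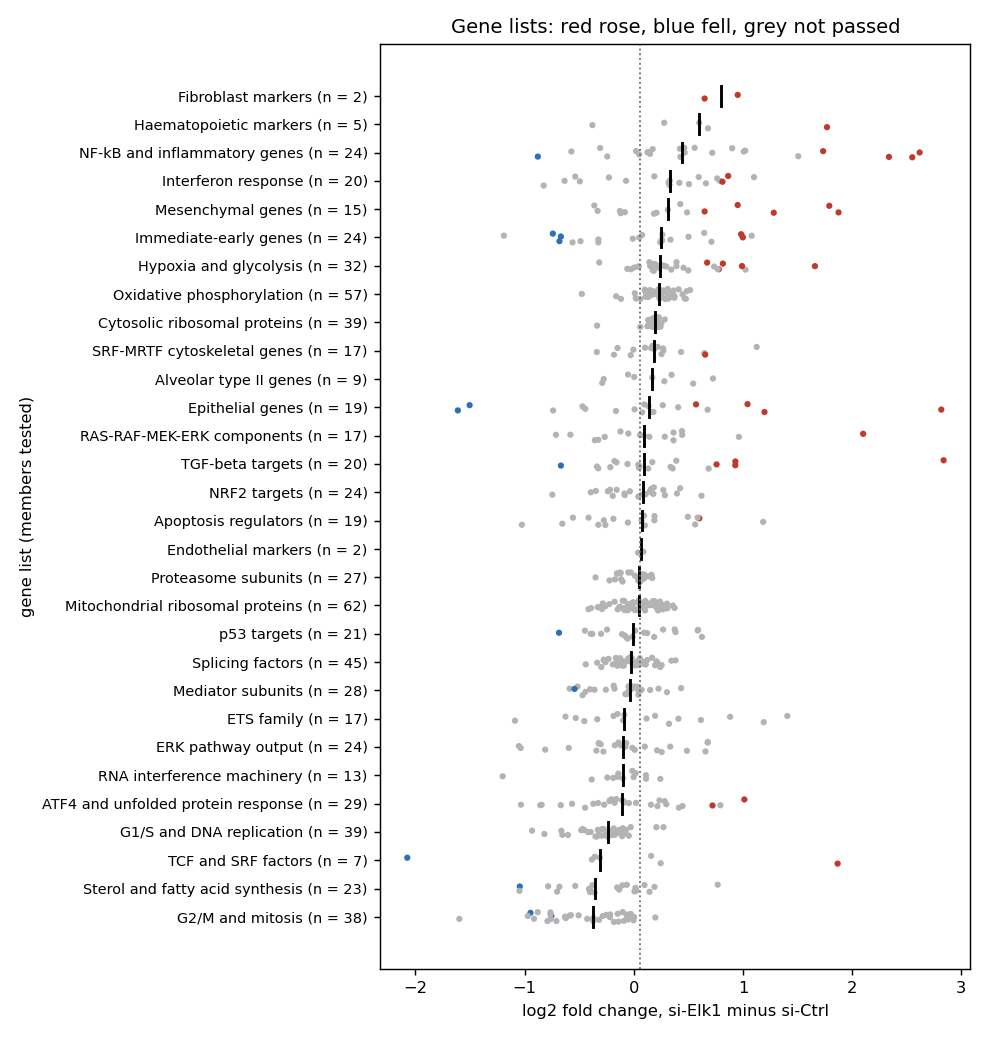
Log2 fold change of si-Elk1 against si-Ctrl (horizontal axis) for the tested members of 30 gene lists, 1 point a gene, with black bars at the list medians and a dotted line at the median of all 12616 genes. The G2/M and G1/S lists lie left of the line at -0.37 and -0.23, with 2 and 0 members called.

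Oligo C differed from A and B in single genes in both directions, and those with large gaps are given here. The gaps are a description of single arrays with no test. SHANK3, a synaptic scaffold, read 7.45 and 7.47 with A and B and 2.89 with C, against 7.44, 7.29 and 6.33 in si-Ctrl. The peptide transporter gene ABCB9, the zinc finger gene ZNF431 and QPCTL, a glutaminyl cyclase, showed the same form, with C below the mean of A and B by 4.21, 3.89 and 3.64 on the log2 scale. ANK2, ankyrin B, was low with A and B (5.69 and 6.60) and lower with C (2.63) against controls from 7.77 to 8.13. All of these C signals were under the dim level, so the gaps are uncertain in size. In the other direction LOC93429 read 2.61 and 3.38 with A and B and 6.69 with C, against 6.66, 7.52 and 6.39 in si-Ctrl, and PCDH10, a protocadherin, 3.81, 4.19 and 6.56 against 6.83, 7.29 and 7.89. In these genes the fall seen with A and B was smaller or not seen with C. Their A and B signals were under the dim level, so these gaps too are uncertain in size. Without oligo C both passed, with adjusted p = 0.0202 for LOC93429 and 0.0210 for PCDH10, and with it neither did (0.128 and 0.0716). Both were picked for the gap between C and the mean of A and B. That choice favours passing without C, so the pass is no support for a fall. NDC80, a kinetochore protein, and ATF5, a stress response factor, likewise passed only without oligo C (0.0423 and 0.0417 against 0.0722 and 0.0581), NDC80 being lowest with C and ATF5 highest.

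The 3 si-Med23 arrays allow a direct test of whether a gene that changed with si-Elk1 differs from the second knockdown. Both knockdowns share the control arrays, so only this contrast is a test of difference. It called 2739 genes (21.7%), 1535 higher and 1204 lower in si-Elk1. That split was 553 to 4711 after median centring, 3943 to 359 with hybridization control scaling and 10219 to 33 with poly-A spike scaling. The count was 4496 without si-Elk1 oligo C, 769 and 896 without si-Elk1 oligos A and B, and 1629 and 1338 without the si-Med23 arrays of oligos A and B. Of the 537 genes of the si-Elk1 comparison 189 were also called here, 129 higher and 60 lower in si-Elk1 than in si-Med23. NTS was the farthest above, at 6.14, 5.48 and 6.13 in si-Med23, below all controls, against 12.44, 12.79 and 12.23 in si-Elk1 (difference 6.57 ± 0.23, adjusted p = 1.04e-05). SNAP25, CEMIP and FILIP1, a filamin-interacting protein, were higher than in si-Med23 by 2.72 ± 0.25, 2.38 ± 0.19 and 2.42 ± 0.36. The FILIP1 call against the controls was lost whichever of the 6 arrays was left out (adjusted p up to 0.122). ERBB3 read 7.21, 7.05 and 7.07 in si-Med23, within the range of the controls or just beside it, and differed by 2.13 ± 0.12 (adjusted p = 0.000270). KIRREL3 read 7.44, 8.63 and 8.37 in si-Med23 and was lower in si-Elk1 by 3.33 on the log2 scale (adjusted p = 0.00496). In contrast the difference between the knockdowns was 0.07 ± 0.13 for FN1 (adjusted p = 0.721), -0.30 ± 0.45 for BMP4 (0.641), -0.15 ± 0.21 for CDH1 (0.637) and 0.32 ± 0.31 for MYBL1 (0.464), which did not pass and does not show that they respond alike.

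In 14 genes the knockdowns were called in opposite directions against the shared controls and also passed in the direct contrast. GREM1 read 8.73, 9.55 and 9.41 in si-Med23 and 5.99, 6.52 and 6.66 in si-Elk1, either side of controls from 8.45 to 8.60. CCL2 read 12.83, 13.09 and 13.38 against 10.39, 10.66 and 10.08, with controls from 11.16 to 11.40, and EFNB2 9.12, 8.53 and 9.24 against 6.38, 6.12 and 6.68, with controls from 7.87 to 8.22. OLFML3, a secreted olfactomedin-like protein, read 10.81, 10.69 and 11.65 against 8.02, 8.21 and 8.46. SCG2, secretogranin II of secretory granules, went with NTS, at 7.42, 6.20 and 6.21 in si-Med23 and 9.13, 9.18 and 8.76 in si-Elk1, with controls of 7.63, 7.34 and 7.66. Its call against the controls was lost whichever of the 6 arrays was left out (up to 0.109), as was that of OLFML3 (up to 0.0951).

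**Figure D5:**
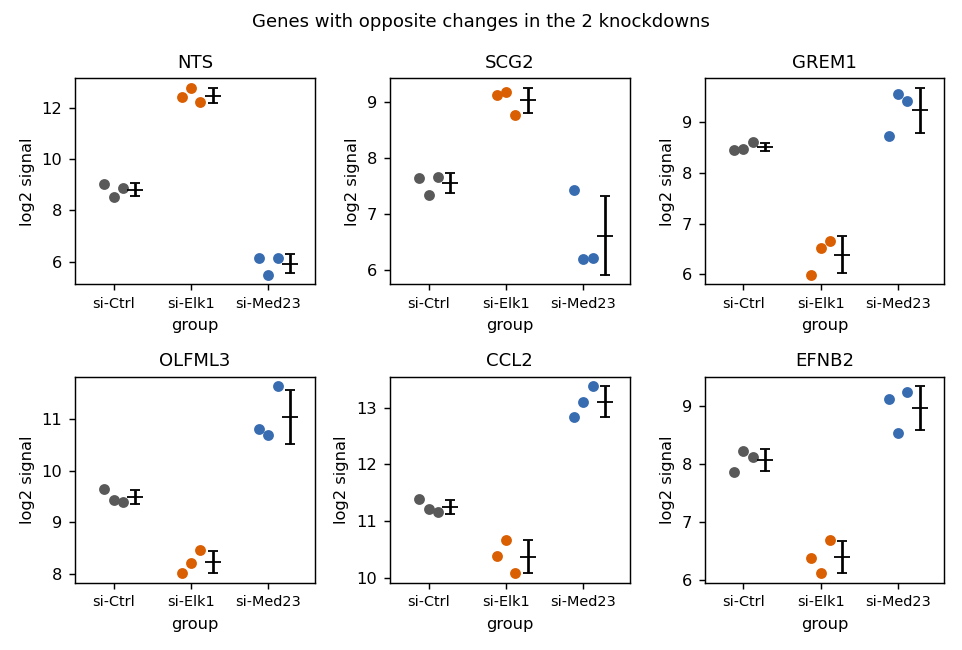
Log2 signal (vertical axis) of 6 genes on each si-Ctrl, si-Elk1 and si-Med23 array, with bars for the mean and SD of 3 arrays. NTS and SCG2 lie above the controls in si-Elk1 and have lower means than the controls in si-Med23, where 1 SCG2 array overlaps them, and GREM1, OLFML3, CCL2 and EFNB2 show the reverse order.

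The motifs shown at the start were counted in RefSeq promoter windows of 300 bases (250 before and 50 from the start on), on both strands and with a match counted once a window. Windows were found for 10259 of the 12616 genes tested, 271 of those that rose and 122 of those that fell. The ETS core CCGGAAG was in 16.3% of 14917 windows of tested genes, in 10.6% of 188 windows of genes that fell (95% exact Clopper-Pearson interval 6.62% to 16%) and in 7.28% of 412 windows of genes that rose (4.97% to 10.2%). It was in 10.3% of all 35116 windows of the table. The CArG box was in 1.09% of windows of tested genes, in 2.13% of those of genes that fell (4 windows) and in 1.46% of those of genes that rose (6 windows). Windows of 1 gene can overlap and are not independent, and intervals cover counting error only. A match describes the letters of the window and says nothing about binding in these cells.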

How the data were processed

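Total RNA of each of the 9 samples was hybridised to 1 Affymetrix human array. The deposited values are linear signal intensities for 54675 probe sets, which the authors scaled so that each array has the same trimmed mean. RMA and MAS5 are both named per the submitters' processing notes, without a stated role or version. The sources used here do not give a build.

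Control probe sets (62) were left out, and log2(signal + 1) was taken. Probe sets with 1 annotated gene (41091) were used, and a gene was represented by its brightest probe set on average. Genes whose probe set mean lay below the median over all probe sets (log2 6.05) were left out, which left 12616 of 19775. limma 3.58.1 in R 4.3.3 fitted the 3 groups on all 9 arrays, with lmFit, eBayes and Benjamini-Hochberg adjustment, and was tested on simulated data. The target check used all 54613 probe sets. Arrays carry no read depth, and 3 arrays a group limit the precision.

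Named genes were ELK1, the 12 largest rises and the 12 largest falls among called genes with no overlap, up to 4 members of each of 30 lists with the smallest p, all ternary complex and SRF factors, the 5 largest gaps of oligo C each way and the 5 largest differences from si-Med23 each way. Any other gene given with values was chosen after its values were seen. The members and lists were chosen with earlier results of these data known. Alternatives covered filters, probe set choice, scaling, the pseudocount, the prior, array weights, a replicate block, thresholds and leaving out each array.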

Additional observations from a re-analysis of the deposited data

Results flagged for a closer look

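Of 14 genes called in opposite directions in the knockdowns against the same control arrays, the 6 with the largest difference in the direct limma contrast are given here, and all 6 had adjusted p-values under 0.05 in it. The si-Elk1 minus si-Med23 difference in log2 signal was 6.57 for NTS and 2.41 for SCG2. It was -2.84 for GREM1, -2.82 for OLFML3, -2.72 for CCL2 and -2.57 for EFNB2. Every si-Elk1 array lay on the same side of every si-Med23 array in each of these genes.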

How the results depend on the processing

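The 537 calls became 119 with no filter on dim genes, 937 with a stricter one (70th percentile), 271 when probe sets were averaged per gene, 318 without probe sets ending in _x_at or _s_at, 4993 with poly-A spike scaling, 855 with dim signals raised, 1594 with array weights and 1064 with a trended and robust prior. They were 77 and 1506 at thresholds of 0.01 and 0.10, and 109 to 265 with 1 array left out. With the replicate number as a block 162 genes passed. Same-numbered si-Elk1 and si-Ctrl arrays had correlations of -0.06, -0.08 and -0.17 between their deviations. Deviations within such small groups depend on one another, so these values cannot decide whether the numbers pair the samples. Quantile normalization, median centring, hybridization control scaling, a pseudocount of 16 and a fit of the 6 arrays alone gave 655, 567, 424, 656 and 464. The 2739 differences from si-Med23 became 979 with no filter, 1783 with the probe set mean, 5264 with median centring, 10252 with poly-A spike scaling, 4302 with hybridization control scaling, 1319 with the replicate block, 4966 with array weights, 398 and 4358 at thresholds of 0.01 and 0.10, and 769 to 4496 with 1 array left out. The ELK1 change of -2.07 over all probe sets (limma adjusted p = 0.0728) had an adjusted p of 0.00684 over the genes tested, -1.97 and 0.0374 with a pseudocount of 16, 0.250 with the replicate block, and -2.31 to -1.93 (0.102 to 0.190) with 1 array left out. Only genes named by rule were followed one by one through these settings, so others such as JUP are not covered in what follows. Among them signs turned for MDM2 (0.11) and TSC22D1 (-0.33) without probe sets ending in _x_at or _s_at. The sign of BCL2L1 (-0.039) turned with poly-A spike scaling. Of other genes named, ZFP36, ITGA5, IFITM2, IFITM3, DDIT4, XBP1, SLC2A3, P4HA2, MXI1, TJP3, COL1A1, FILIP1 and SCG2 also did not pass with poly-A spike scaling, EEA1, KLF6, MED21, CDK1, BCL2L1 and FILIP1 without probe sets ending in _x_at or _s_at, and KLF6, MED21, NUF2, CDK1, MDM2, BCL2L1, XBP1, P4HA2, TJP3, TSC22D1, THY1 and CCL2 with probe sets averaged. The share of promoter windows of genes that fell with an ETS core was 17.6% with the shorter core CCGGAA, beside 25.8% for all genes tested and 14.1% for genes that rose. Causes of these shifts were not tested. Of 64 called genes named by rule, 25 kept their call with each array left out and 20 under all settings.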
